A study of Danio rerio with 340 samples.

Results

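Mitosis genes encode the proteins that carry a cell from the end of G2 phase through chromosome segregation to the separation of the daughter cells. The set was taken as a list of 39 gene symbols, drawn up with earlier results of these data known, and 38 of them had a row in the table of 31658 genes. The inner centromere protein gene incenp was not analysed here. By role, the 38 genes were 5 genes of Cdk1 and its cyclins, 5 of mitotic kinases and the chromosomal passenger complex, 7 of the spindle checkpoint and anaphase control, 4 of the kinetochore, 7 of condensin and chromosome structure, 6 of spindle motors and microtubule proteins and 4 of cytokinesis.

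In dividing cells, Cdk1 bound to cyclin B starts mitosis, condensin and topoisomerase II fold and untangle the chromosomes, kinetochores attach them to the spindle, and the spindle checkpoint delays their separation until all are attached. Most of these genes are transcribed late in the cycle, from late S phase to mitosis, whereas the genes of DNA replication are transcribed from late G1 into S phase. At 5 dpf a zebrafish larva still has dividing cells, among them those of the retinal margin, the brain ventricles, the gut and the blood-forming tissue.

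Single whole larvae, 340 in all, were sequenced at 5 dpf. The 3′ ends of messenger RNA were read with the Lasy-Seq protocol, which gives each larva its own index. Exposure began at 5 to 6 hpf and lasted until 5 dpf. Hydroxyurea, an inhibitor of ribonucleotide reductase and thereby of DNA synthesis, was given to 104 larvae of AB, TU, RW and PET at 0, 1.3, 6.6 and 33 mM (24, 26, 28 and 26 larvae). Valproic acid, an anticonvulsant that inhibits histone deacetylases, was given to 160 larvae of AB, TU, RW, WIK and PET at 0, 1, 5 and 20 µM (40 larvae each), and warfarin, a vitamin K antagonist used as an anticoagulant, to 76 larvae of AB, TU, RW and PET at 0, 150 and 300 µM (25, 26 and 25 larvae). PET came from a pet store, and the other strains are laboratory lines without a named mutation or transgene. Each strain and dose had 4 to 8 larvae, all from 1 exposure, so that the spread given here is that between larvae and a strain cannot be told apart from its clutch. The p-values measure only this spread.

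The values were estimated counts per gene. After TMM scaling, edgeR's quasi-likelihood test was run per compound, and a gene is called changed, higher or lower where the p-value, adjusted by the Benjamini-Hochberg method over every gene tested, was under 0.05. SE is the standard error of a log2 fold change. Levels are given as CPM, the share of a larva's counts scaled to 1e6, with TMM library sizes. Levels are compared between larvae and not between genes, and a gene's share of a summed level is a share of counts and not of transcripts. Larvae had 124136 to 14186300 counts, with a median of 2272280. In the hydroxyurea experiment the median was 2698900 at 0 and 1825800 at 33 mM, and AB larvae were the shallowest (median 858850, against 2602610 to 3375080 in the other strains). For bub1 and kif18a, too few counts were present for the test over strains in the hydroxyurea experiment, which left 36 members, and 38 were tested for valproic acid and 35 for warfarin, where espl1 was left out with them. In whole larvae, fewer cells of a type and less RNA per cell cannot be told apart.

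In the hydroxyurea experiment, a pair of larvae stood apart in the summed level of the mitosis genes. A TU larva at 33 mM had 702 CPM, where the median of the others of its group was 1211, and it was the lowest of the 26 exposed larvae. The AB larva at 0 with 441 CPM of spc25 had 868 CPM in all members, where the others of its group had a median of 518, and its total count was 570077. The rise at 33 mM described next was as large without either of them, with 34 of 36 members higher and a median log2 fold change of 1.23 without the TU larva, and 35 higher and a median of 1.2 without the AB larva.

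At 33 mM of hydroxyurea, mitosis genes rose nearly as a set. Of the 36 members tested, 34 were higher than in untreated larvae and 0 were lower, beside 10.3% of all 15042 genes that were higher and 12.5% that were lower. The median log2 fold change of the members was 1.21, with a range of 0.21 to 1.87, and the median of all genes was 0.02. For 24 members the change was over 1 on the log2 scale, and for 12 it was over 1.5. The exceptions to the call were spc25 and pttg1.

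By dose, calls began at 6.6 mM. At 1.3 mM, 0 of 36 members were called by edgeR (0.00665% of all genes were higher), 8 had an unadjusted p under 0.05, DESeq2's Wald test called 2, and the median log2 fold change was 0.15. At 6.6 mM, 15 members were higher and 0 were lower, beside 0.618% of all genes higher and 0.532% lower, and the median was 0.47 against -0.01 over all genes. Between 6.6 and 33 mM, 33 of the 36 members rose further and 0 fell, beside 8.12% and 10.1% of all genes, with a median of 0.77. The members not called in that step were ect2 (0.29), ndc80 (0.37) and pttg1 (0.36).

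**Figure D1:**
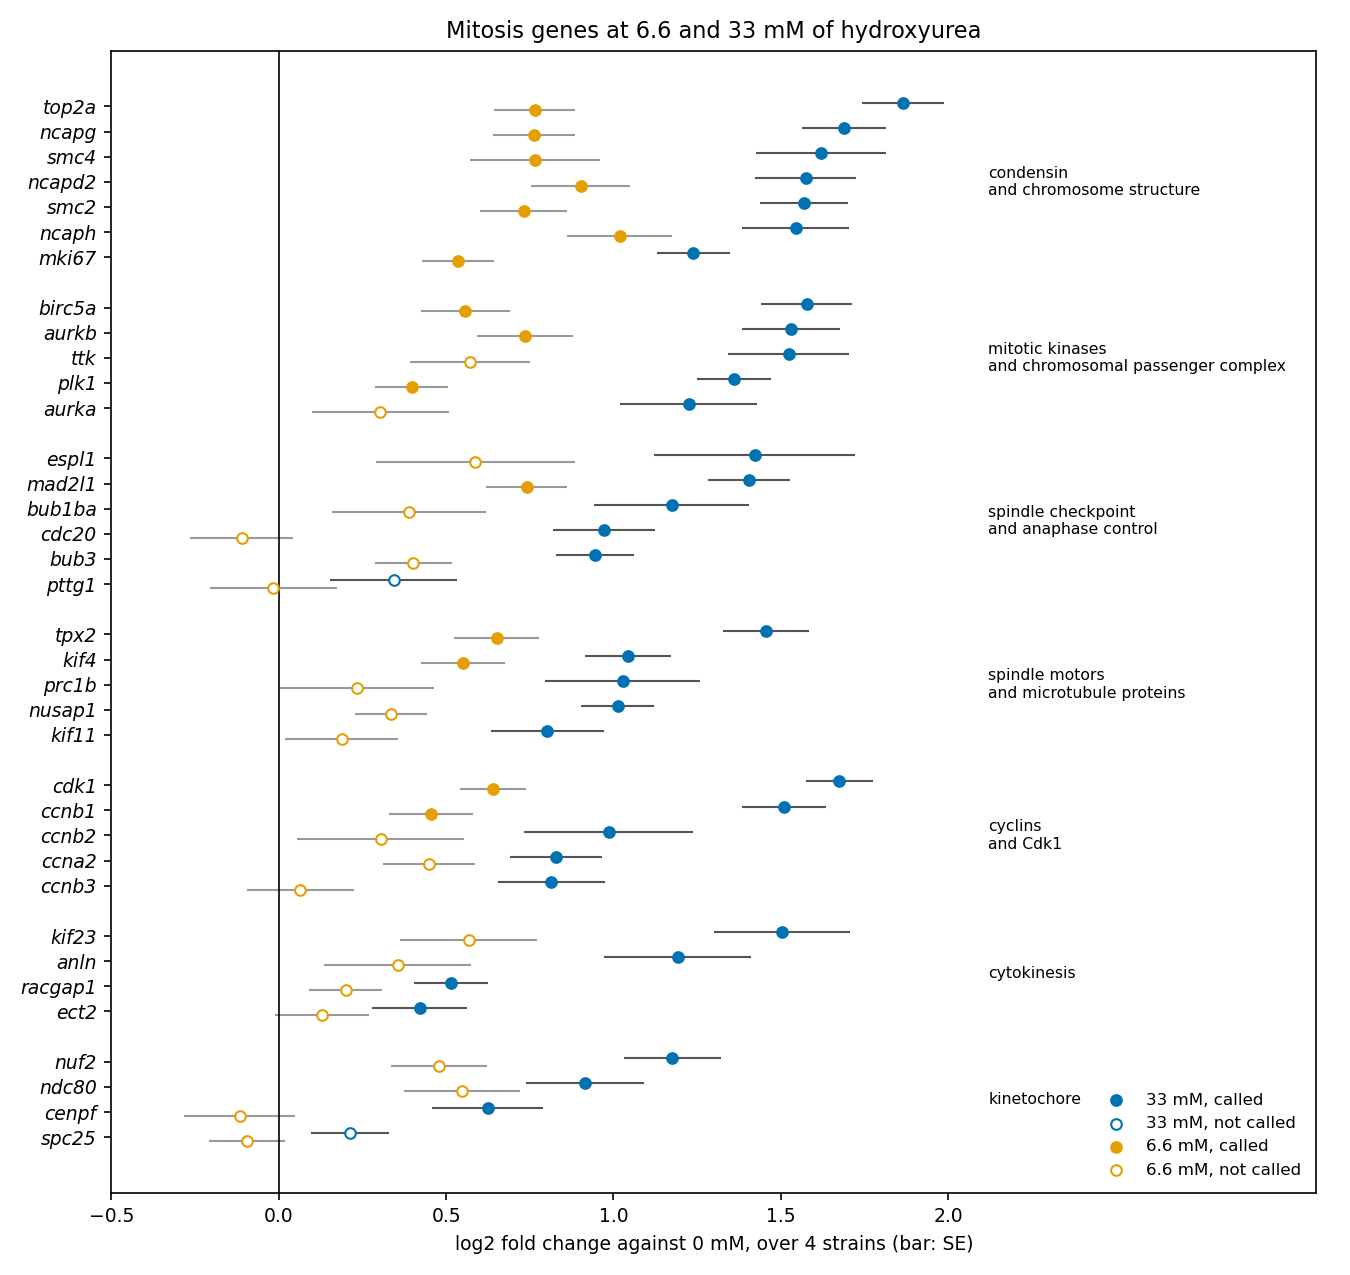
Log2 fold change (x axis) against untreated larvae for 36 mitosis genes grouped by role, at 6.6 mM (orange) and 33 mM (blue) of hydroxyurea, fitted over 4 strains. Bars are standard errors and filled points have an adjusted p under 0.05 from edgeR's quasi-likelihood test. All 7 condensin and chromosome structure genes are filled at both doses, while no cytokinesis or kinetochore gene is filled at 6.6 mM.

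The kinase that drives entry into mitosis, cdk1, had the clearest separation. Its level was 8.63 to 36.1 CPM in 24 untreated larvae (median 24.5), 14.0 to 49.0 at 1.3 mM (median 27.9), 14.6 to 60.9 at 6.6 mM (median 38.6) and 52.8 to 101 at 33 mM (median 81.3). All 26 larvae at 33 mM were above every untreated larva, and 18 of 28 were at 6.6 mM. The log2 fold change at 33 mM was 1.68 (SE 0.099, adjusted p = 6.03e-30, edgeR), and at 6.6 mM it was 0.64. cdk1 was the only 1 of the 36 members whose groups did not overlap at all, beside 0.0598% of all genes tested with every larva at 33 mM above every control. Against the controls of the same strain, top2a and birc5a also did not overlap, which made 3 members beside 0.0997% of all genes. No member lay below every control (0.273% of all genes) or below every control of its strain (0.538%).

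In the smallest groups the cdk1 values were 30.6, 30.4, 19.0 and 36.1 CPM in the 4 untreated RW larvae and 84.9, 86.7, 95.2, 88.6 and 82.4 CPM in the 5 PET larvae at 33 mM. Beside these, the RW larvae at 33 mM were at 64.2 to 84.0 CPM and the untreated PET larvae at 21.4 to 35.3 CPM. Medians of cdk1 at 0 and 33 mM were 19.1 and 74.1 CPM for AB, 23.3 and 83.6 CPM for TU, 30.5 and 74.2 CPM for RW and 29.0 and 86.7 CPM for PET.

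The cyclin partners of Cdk1 all rose at 33 mM, by unequal amounts. The B-type cyclin gene ccnb1, the main partner of Cdk1 at mitotic entry, was at 8.84 to 40.3 CPM at 0 (median 20.9), 7.02 to 46.2 at 1.3 mM (median 22.3), 11.2 to 57.9 at 6.6 mM (median 28.4) and 21.6 to 102 at 33 mM (median 58.4). It had 24 of 26 larvae at 33 mM above every untreated larva and a log2 fold change of 1.51 (SE 0.126, adjusted p = 9.13e-20, edgeR). The lowest ccnb1 value at 1.3 mM was 1 count in a TU larva with 124136 counts in all. The cyclin A2 gene ccna2, whose protein acts in S phase as well as in G2, was at 10.9 to 49.7 CPM at 0 (median 20.7) and 14.0 to 66.8 at 33 mM (median 36.5). Most larvae of these groups shared a range, with 5 of 26 above every control and 21 above those of their own strain, and the log2 fold change was 0.83 (SE 0.138, adjusted p = 4.62e-07, edgeR).

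For both other B-type cyclin genes the groups overlapped more than for ccnb1. For ccnb2 the level was 0 to 9.04 CPM at 0 (median 3.35) and 0 to 13.8 at 33 mM (median 7.76), with a log2 fold change of 0.99 (SE 0.252, adjusted p = 0.00136, edgeR) and 8 of 26 larvae above every control. For ccnb3, known in mice for its part in meiosis, the level was 2.78 to 18 CPM (median 8.54) and 5.14 to 27.1 (median 13.2), with a log2 fold change of 0.81 (SE 0.160, adjusted p = 2.14e-05, edgeR) and 9 of 26 larvae above every control. At 6.6 mM, ccnb1 was called (0.45), and ccna2 (0.45, adjusted p = 0.0849, edgeR), ccnb2 (0.30) and ccnb3 (0.07) were not.

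**Figure D2:**
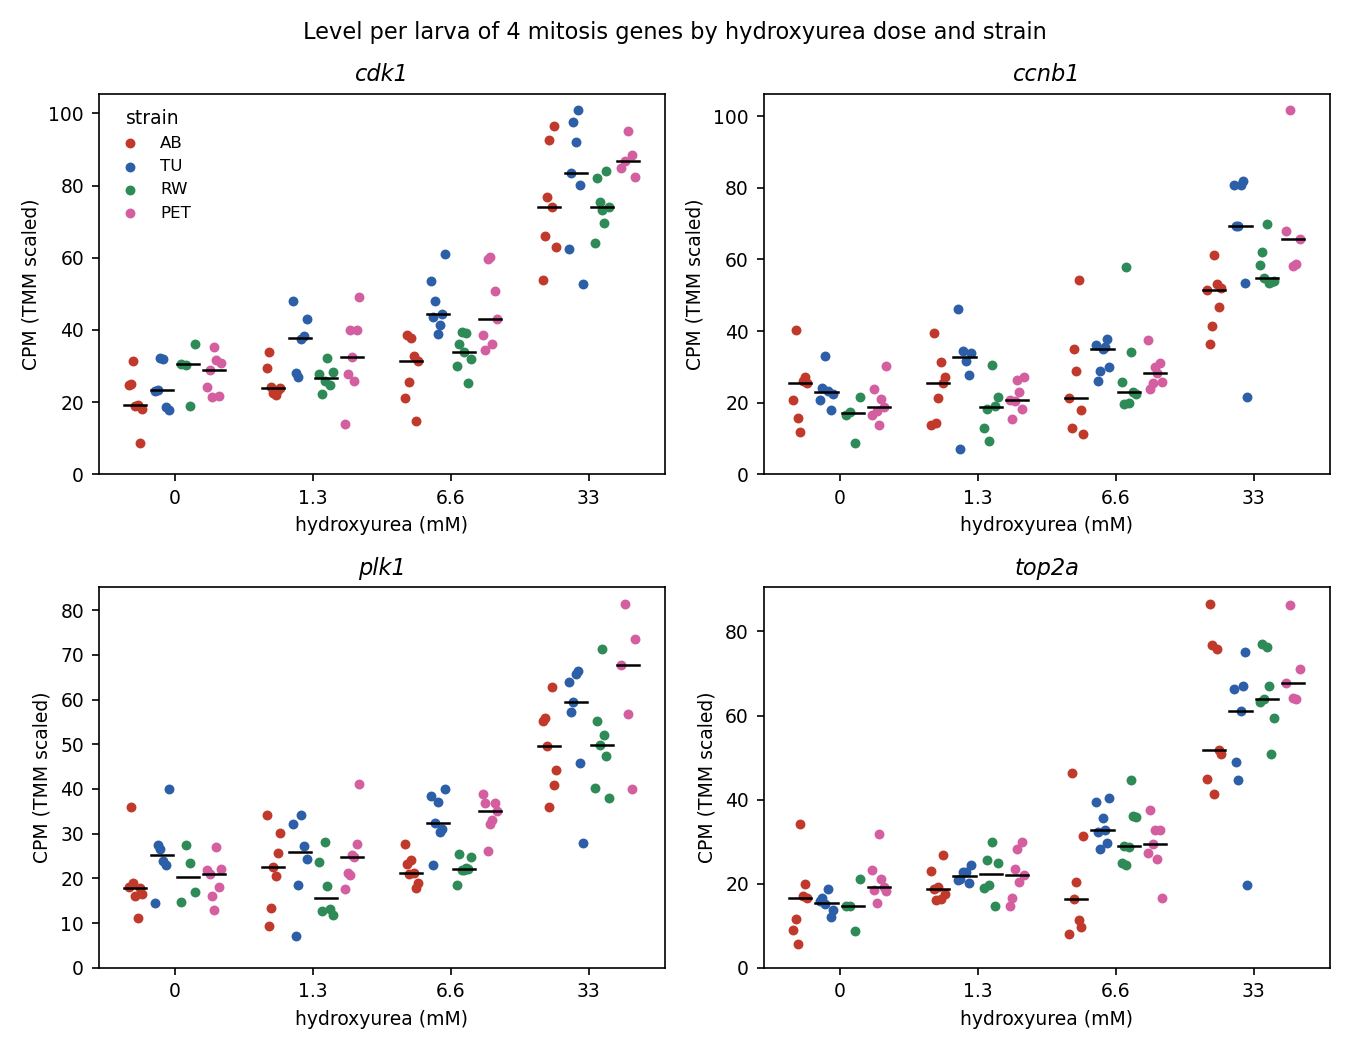
Level in CPM (y axis) of cdk1, ccnb1, plk1 and top2a in each of the 104 larvae of the hydroxyurea experiment, by dose in mM (x axis) and strain (color). Black lines are the medians of a strain and dose. The cdk1 points at 33 mM (52.8 to 101 CPM) lie above all untreated points (8.63 to 36.1 CPM), and a single TU larva at 33 mM is low for ccnb1, plk1 and top2a.

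Genes of condensin and chromosome structure had the largest median change of the 7 roles at both 6.6 and 33 mM. All 7 were higher at 6.6 mM and all 7 at 33 mM, with median log2 fold changes of 0.76 and 1.57. The DNA topoisomerase II gene top2a, which encodes the enzyme that untangles sister chromatids, was at 5.76 to 34.2 CPM at 0 (median 16.6), 14.7 to 30.0 at 1.3 mM (median 21.0), 8.14 to 46.4 at 6.6 mM (median 29.5) and 19.7 to 86.5 at 33 mM (median 64.0). Its values were 14.8, 14.6, 8.84 and 21.1 CPM in the 4 untreated RW larvae and 67.6, 86.2, 64.2, 63.9 and 71.1 CPM in the 5 PET larvae at 33 mM. Of the 26 larvae at 33 mM, 25 were above every control, and the log2 fold change of top2a was 1.87 (SE 0.122, adjusted p = 6.49e-27, edgeR), the largest among the members.

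The condensin subunit gene ncapg followed, from 7.05 to 25.7 CPM at 0 (median 18) to 21.6 to 87.2 at 33 mM (median 51.1), with 25 of 26 larvae above every control and a log2 fold change of 1.69 (SE 0.125, adjusted p = 3.05e-23, edgeR). Log2 fold changes at 33 mM were 1.62 for smc4 and 1.57 for smc2, which encode the ATPase core of condensin, and 1.57 for ncapd2 and 1.54 for ncaph, which encode its regulatory subunits. At 6.6 mM, ncaph (1.02) and ncapd2 (0.90) had the largest changes of all members, and 19 of 28 larvae were above every control for ncaph. For smc4 the groups overlapped more, with 6 of 26 larvae at 33 mM above every control and 20 above those of their own strain. The gene of the proliferation marker Ki-67, mki67, which coats mitotic chromosomes, rose by 0.54 at 6.6 mM and by 1.24 at 33 mM on the log2 scale, and its median went from 28.1 to 67.3 CPM.

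Mitotic kinase genes and the survivin gene birc5a were all 5 higher at 33 mM, with a median log2 fold change of 1.52, and 3 of them were higher at 6.6 mM. The polo-like kinase gene plk1, which acts at mitotic entry and on the centrosome, was at 11.1 to 39.9 CPM at 0 (median 19.9), 7.02 to 41.2 at 1.3 mM (median 23.1), 17.9 to 39.9 at 6.6 mM (median 25.9) and 28.0 to 81.5 at 33 mM (median 55.3). The value of 7.02 CPM was 1 count in the TU larva with 124136 counts in all. At 6.6 mM no larva was above every untreated larva for plk1, although the fitted change of 0.40 was called, and at 33 mM 22 of 26 were above, with a change of 1.36. The aurora kinase gene aurkb (1.53) and birc5a (1.58), which encode subunits of the chromosomal passenger complex that corrects wrong attachments, had 25 and 24 of 26 larvae above every control. Changes at 33 mM were 1.52 for ttk, the kinase that starts the spindle checkpoint, and 1.22 for aurka, the aurora kinase of the spindle poles, and neither ttk (0.57) nor aurka (0.30) was called at 6.6 mM.

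Spindle checkpoint and anaphase genes were less uniform. At 33 mM, 5 of the 6 tested were higher, with a median of 1.07, and only mad2l1 was called at 6.6 mM (0.74). The checkpoint gene mad2l1 went from 13.6 to 50.2 CPM at 0 (median 25.5) to 37.6 to 94.9 at 33 mM (median 67.7), a log2 fold change of 1.40, with 22 of 26 larvae above every control. Genes of the other checkpoint proteins rose by 1.17 (bub1ba) and 0.95 (bub3) on the log2 scale at 33 mM.

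Among the genes that act at the start of anaphase, the separase gene espl1, whose protein cuts the cohesin rings, had a log2 fold change of 1.42 and cdc20, the activator of the anaphase-promoting complex, 0.97. The cdc20 level at 6.6 mM was not above that at 0 (log2 fold change -0.11, medians 11.8 and 13.5 CPM), and its rise lay between 6.6 and 33 mM. The securin gene pttg1, whose protein holds separase inactive, was at 1.5 to 15.0 CPM at 0 (median 5.87) and 2.28 to 18.4 at 33 mM (median 6.90), with a log2 fold change of 0.34 (SE 0.189, adjusted p = 0.2, edgeR) and 1 of 26 larvae above every control. A change of pttg1 was thus not resolved from the spread between larvae. The checkpoint kinase gene bub1 had a median of 0 CPM at every dose of hydroxyurea and a highest value of 4.96 CPM, so no statement can be made on it at this depth.

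Kinetochore genes had the smallest median change of the 7 roles. Of 4, 3 were higher at 33 mM, 0 were called at 6.6 mM, where 2 had an unadjusted p under 0.05, and the median at 33 mM was 0.77. The Ndc80 complex, which holds the microtubule end, is encoded by ndc80, nuf2, spc25 and a further gene. Its genes nuf2 and ndc80 had log2 fold changes of 1.18 and 0.91 at 33 mM, with 22 and 13 of 26 larvae above every control. The kinetochore protein gene cenpf had a change of 0.62 (adjusted p = 0.0021, edgeR) and lost the call without PET larvae (adjusted p = 0.105, edgeR), and its value at 6.6 mM was -0.12.

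In contrast to its partners, spc25 was at 47.6 to 441 CPM at 0 (median 69.4), 35.1 to 127 at 1.3 mM (median 66.1), 48.2 to 184 at 6.6 mM (median 64.7) and 57.7 to 190.3 at 33 mM (median 86.2). No larva at 33 mM was above the highest control, and the log2 fold change was 0.21 (SE 0.115, adjusted p = 0.191, edgeR). The value of 441 CPM came from 1 AB larva. Without that larva, the change of spc25 was 0.37 and was called (adjusted p = 0.00179, edgeR), a setting chosen after the values were seen. Without the shallow larvae, with under 0.5 of the experiment's median depth, it was 0.35 (adjusted p = 0.00284, edgeR). That setting also left out the AB larva, which had 570077 counts, so these results are not independent. By strain, spc25 changed by -0.14 in AB, -0.13 in RW, 0.39 in TU and 0.73 in PET, of which only PET was called (adjusted p = 0.0149, edgeR). A difference between strains in the change of spc25 was not called (adjusted p = 0.225, edgeR).

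Spindle motor and microtubule genes were all 5 higher at 33 mM, with a median of 1.03. The gene tpx2, whose protein activates aurora A and seeds microtubules, was at 3.01 to 24.5 CPM at 0 (median 15.105) and 17.2 to 70.5 at 33 mM (median 41.5), a log2 fold change of 1.46, and 23 of 26 larvae were above every control. Changes were 1.04 for kif4, a motor on chromosome arms, 1.03 for prc1b, which bundles the central spindle, 1.01 for nusap1, which stabilizes spindle microtubules, and 0.80 for kif11, the motor that pushes the poles apart. At 6.6 mM, tpx2 (0.65) and kif4 (0.55) were called. The median of kif18a, a motor that shortens kinetochore microtubules, was 1.04 CPM at 0 and 1.80 at 33 mM, and its groups overlapped.

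Cytokinesis genes were all 4 higher at 33 mM and 0 of 4 were called at 6.6 mM, where 1 had an unadjusted p under 0.05. The centralspindlin motor gene kif23 rose by 1.5 and its partner racgap1 by 0.51 on the log2 scale, although their proteins form 1 complex at the spindle midzone. Anillin, which scaffolds the contractile ring, is encoded by anln, and its change was 1.19. The gene ect2, whose protein acts in placing the cleavage furrow, was at 4.84 to 22.6 CPM at 0 (median 14.9) and 9.11 to 46.5 at 33 mM (median 16.7), a change of 0.42 (SE 0.142, adjusted p = 0.0204, edgeR). The call for ect2 was lost with log10 depth as a covariate (0.28, adjusted p = 0.194, edgeR), without PET larvae (adjusted p = 0.123, edgeR) and without replicates 1, 4 or 5 (adjusted p = 0.105, 0.121 and 0.0618, edgeR).

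Within each strain, 37 members were tested at 33 mM, and the direction was shared. In AB 20 were higher (2.49% of all genes), in PET 31 (3.66%), in RW 23 (2.19%) and in TU 21 (2.15%). Without the shallow larvae, 9 members were higher in AB. The AB median depth of 858850 lay under that cutoff, so many AB larvae were left out. The lower count thus cannot be told apart from the loss of larvae. In each strain 0 were lower, beside 4.75% of all genes in AB, 5.76% in PET, 3.93% in RW and 3.85% in TU. The median log2 fold change was 0.92 in AB, 1.38 in PET, 1.35 in RW and 0.97 in TU. In every strain 35 members had a change above 0, the others being spc25 and pttg1 (-0.35 in RW), and 18 members were called in every strain. Shares of all genes were not computed for these counts over strains. These 18 were cdk1, ccnb1, plk1, aurkb, birc5a, ttk, mad2l1, bub3, nuf2, top2a, mki67, smc2, ncapd2, ncapg, ncaph, tpx2, kif4 and nusap1. Not called in any strain were ccnb2, ect2, kif11, kif18a and pttg1. On simulated counts, the test within PET recovered 12% of genes changed by 0.75 and 61% of those changed by 1.5 on the log2 scale. The simulated spread was estimated without dose as a term and includes dose effects, so these rates need not hold for the real counts.

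Some differences between strains stood out by size but were not resolved. The condensin gene smc4 changed by 2.35 in PET and 1.2 in AB, kif23 by 1.94 in PET and 0.77 in AB, ncapg by 2.18 in AB and 1.34 in RW, and espl1 by 1.99 in AB and 0.60 in PET. In the test of the strain by dose interaction, edgeR called 0 of 37 members (0.777% of all genes), and 1 of them, spc25, had an unadjusted p under 0.05. This test was not run with DESeq2. On simulated data with a change only in AB, the shallowest strain, it recovered 30% of genes changed by 1.5 on the log2 scale. Of genes changed by 0.75 it recovered 0%. Recovery for a difference in another strain was not simulated. Here too the simulated spread includes dose effects, so the rates need not hold for the real counts. Among untreated larvae, 3 of 37 members differed between strains (9.13% of all genes). These were ncaph (adjusted p = 0.016, edgeR), tpx2 (adjusted p = 0.0192, edgeR) and spc25, whose median was 108 CPM in AB and 57.2 to 77.7 CPM in the other strains, and 0 of the 3 were called with log10 depth as a covariate.

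**Figure D3:**
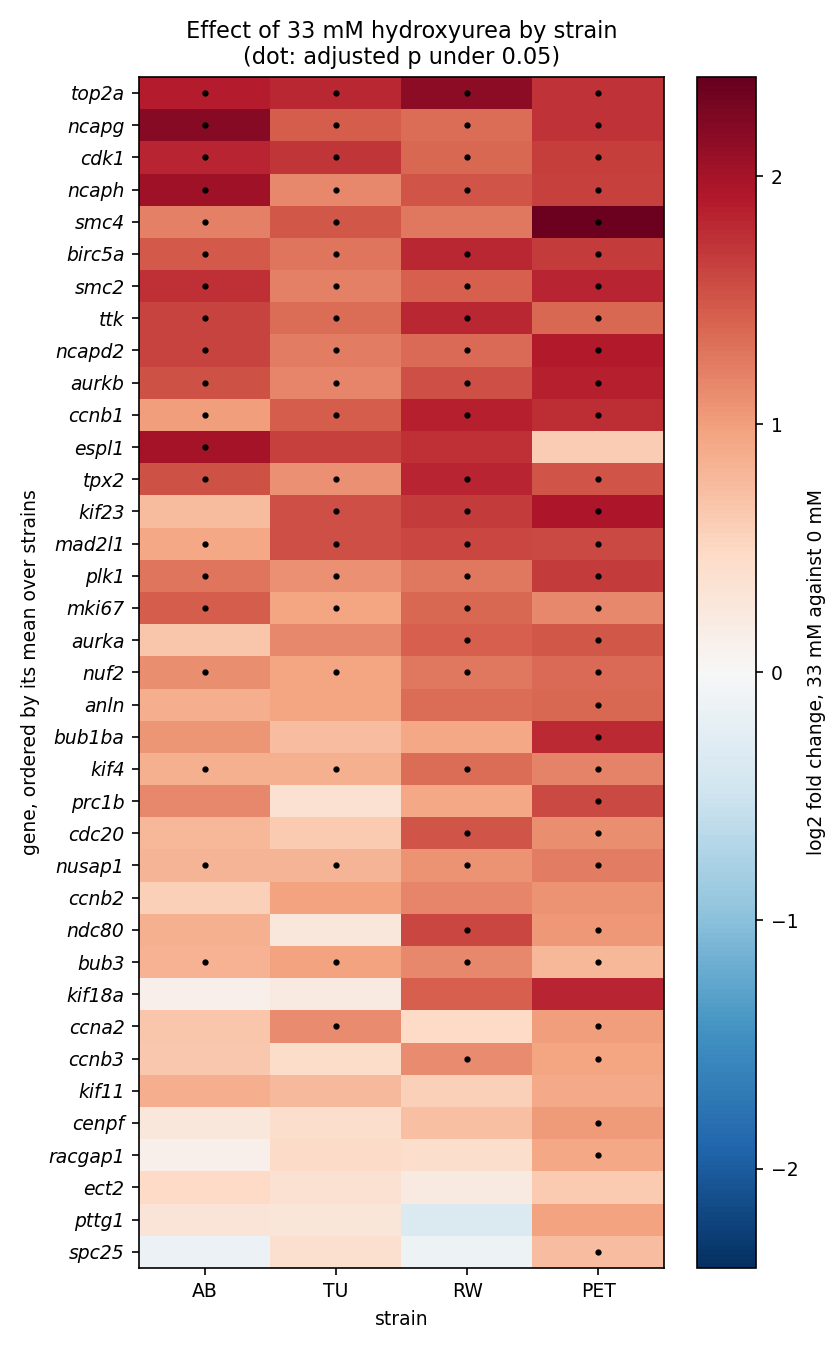
Log2 fold change at 33 mM of hydroxyurea against 0 (color, red higher and blue lower) for 37 mitosis genes (rows, ordered by their mean) in AB, TU, RW and PET (columns). Dots mark an adjusted p under 0.05 from edgeR's quasi-likelihood test. The upper rows, from top2a to plk1, are red in all 4 strains, and blue cells appear only for pttg1 in RW and for spc25 in AB and RW.

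To set G2 and M phase beside S phase, 45 genes of DNA replication were followed in the same fit. At 33 mM, 41 of them were higher and 0 were lower, with a median log2 fold change of 0.76 against 1.21 for the mitosis genes. Of the 36 mitosis genes, 31 were above the median of the S phase genes, and 7 of the 45 S phase genes were above the median of the mitosis genes. Changes over 1.5 were found for 12 mitosis genes and 2 S phase genes. At 6.6 mM the medians were 0.47 and 0.28, and at 1.3 mM they were equal at 0.15. The difference between the lists was not tested, and no p is given for it.

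The S phase genes over 1.5 were rrm2 and cdc45. The ribonucleotide reductase subunit gene rrm2, whose protein complex is the target of hydroxyurea, was at 66.2 to 141 CPM at 0 (median 90.3) and 166 to 489 at 33 mM (median 295), and it had changed by 0.90 at 6.6 mM already. The helicase factor gene cdc45 rose by 1.55. The polymerase clamp gene pcna rose by 0.92 (SE 0.084, adjusted p = 1.55e-17, edgeR), from 118 to 267 CPM (median 173) to 203 to 476 (median 305), and had a change of 0.29 (adjusted p = 0.0561, edgeR) at 6.6 mM. The clamp loader gene rfc1, the other S phase gene with the most counts, had a change of -0.01 (adjusted p = 0.962, edgeR).

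Summed over the 38 genes, the level per larva was 458 to 868 CPM at 0 (median 534), 465.9 to 765 at 1.3 mM (median 597), 624 to 885 at 6.6 mM (median 711) and 702 to 1534 at 33 mM (median 1169). Above every control were 0 of 26 larvae at 1.3 mM, 1 of 28 at 6.6 mM and 25 of 26 at 33 mM, and above those of their own strain 14, 21 and 26. The highest control was the AB larva with 441 CPM of spc25, a gene that held 11.2% of the sum. Without spc25, left out after the values were seen, the sum was 372 to 518 CPM at 0 (median 457), 381 to 707 at 1.3 mM (median 521), 451 to 824 at 6.6 mM (median 636) and 616 to 1437 at 33 mM (median 1085). Of this sum, 14 of 26 larvae at 1.3 mM, 26 of 28 at 6.6 mM and 26 of 26 at 33 mM were above every control, and 17, 27 and 26 above those of their own strain. The sum over S phase genes was 1014 to 1447 CPM at 0 (median 1192) and 1545 to 2621 at 33 mM (median 2050), also with 26 of 26 larvae above every control.

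Divided by the S phase sum of the same larva, the sum without spc25 was 0.305 to 0.504 at 0 (median 0.372), 0.318 to 0.501 at 1.3 mM (median 0.398), 0.369 to 0.552 at 6.6 mM (median 0.436) and 0.399 to 0.655 at 33 mM (median 0.537). This ratio was above every control in 1 of 28 larvae at 6.6 mM and in 20 of 26 at 33 mM, and 24 of these 26 were above the controls of their own strain. By strain, its median at 0 and 33 mM was 0.358 and 0.525 in AB, 0.374 and 0.486 in TU, 0.357 and 0.554 in RW and 0.404 and 0.582 in PET. With spc25 in the sum, 0 of 26 larvae were above every control and 16 were above those of their strain. Only the mitosis sum was trimmed, after the values were seen. The S phase sum kept rfc1, a gene with many counts that was not called at 33 mM, so the trimmed ratio is a description only. Among larvae sharing strain and dose, the sums of mitosis and S phase genes had r = 0.43 over 104 larvae, a description of values that share a library and its depth. With valproic acid r was 0.037 over 160 larvae, and with warfarin 0.19 over 76 larvae.

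**Figure D4:**
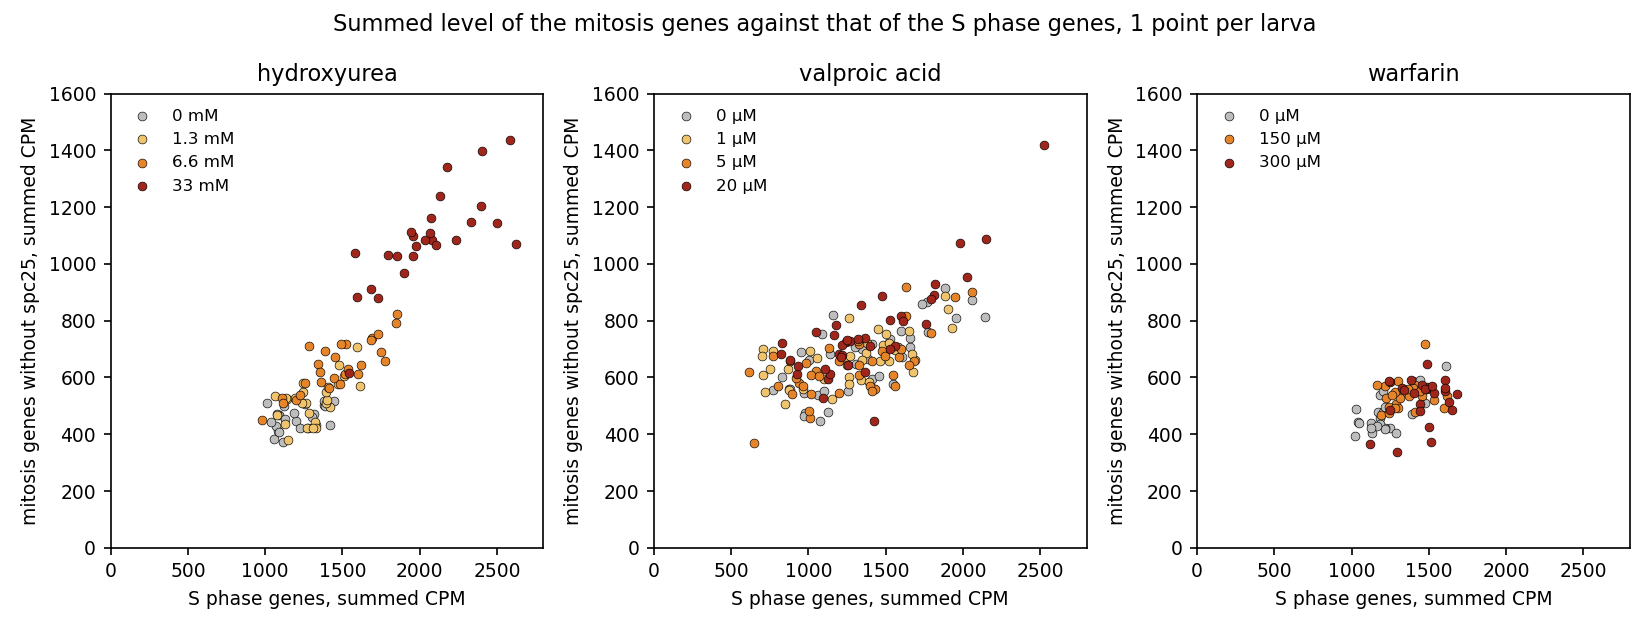
Summed CPM of the mitosis genes without spc25 (y axis) against summed CPM of the S phase genes (x axis) in each larva, for hydroxyurea, valproic acid and warfarin, colored by dose. With hydroxyurea the larvae at 33 mM lie at 616 to 1437 CPM of mitosis genes and 1545 to 2621 CPM of S phase genes, above the untreated larvae on both axes. The doses of valproic acid and warfarin overlap.

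Other genes of the cycle and its checkpoints were followed by lists of their own. Of 54 other G2 and M phase genes, 47 were higher and 0 were lower at 33 mM, with a median of 1.11, and 13 were higher at 6.6 mM. In this list the kinetochore gene nsl1 (1.81, SE 0.209) and the importin gene kpna2 (1.80, SE 0.1, 43.2 to 155 CPM in the median) changed most, and fbxo5, the inhibitor of the anaphase-promoting complex and with kpna2 the gene with the most counts, had a change of 0.03 (adjusted p = 0.772, edgeR). The summed level of this second list over that of the S phase list had a median of 0.501 at 0 and 0.561 at 33 mM. Of 15 G1/S genes, 10 were higher, with a median of 0.65, led by e2f8 (1.83) and e2f3 (1.51), and gmnn had a change of -0.07 (not called) and ccnd1 of 0.65.

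Checkpoint genes were higher in part. Among 13 genes of the G2/M checkpoint, 3 of which are also members (cdk1, ccnb1 and plk1), 10 were higher at 33 mM, with a median of 0.84. The inhibitory kinase of Cdk1, wee1, rose by 0.84 (SE 0.208, adjusted p = 0.000875, edgeR), the phosphatase that opposes it, cdc25b, by 1.10, the checkpoint kinase chek1 by 0.91 (SE 0.222, adjusted p = 0.000781, edgeR), atr by 1.00 and rad1 by 0.39. The Cdk inhibitor gene cdkn1a was at a median of 0 CPM at every dose, with a highest value of 9.46 CPM at 33 mM, and was not tested.

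Markers of tissues moved at 33 mM as well. All 13 exocrine pancreas genes were lower (median log2 fold change -2.79, summed level 5354 to 12095 CPM at 0 and 221 to 3444 at 33 mM), and 8 of 9 neutrophil and macrophage genes were higher (median 1.05, summed level 59.6 to 197 CPM at 0 and 91.8 to 481 at 33 mM). The neural progenitor, retinal marginal zone, and neutrophil and macrophage lists all had smaller median changes than the mitosis genes (1.21). Of 18 neural progenitor genes, 4 were higher and 0 were lower (median 0.14, summed level 576 to 979 CPM at 0 and 553 to 1345 at 33 mM), of 8 genes of the retinal ciliary marginal zone 3 were higher and 1 was lower (median 0.37, 193 to 305 and 247 to 528 CPM, with rx2 at a median of 0), and of 7 erythroid genes 2 were higher and 2 were lower (546 to 3179 and 344 to 6755 CPM, with epor at a median of 0). The part of these tissues in the rise of the mitosis genes was not tested.

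With valproic acid, few mitosis genes changed. At 1 and 5 µM edgeR called 0 of 38 members (0.0055% and 2.37% of all genes), with 2 and 3 at an unadjusted p under 0.05, and DESeq2's Wald test called 0 at both. At 20 µM, 4 of 38 members were higher, beside 8.99% of all genes, so the share that was higher was near that of all genes. Lower were 0 members, beside 11.5% of all genes. The median log2 fold change of the members was 0.23 and that of all genes 0.09.

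Named by size, the changed members were cdc20, smc4, ccnb3 and smc2. The cdc20 level was 0 to 18 CPM at 0 (median 11.3) and 0 to 43.8 at 20 µM (median 16.4), a log2 fold change of 0.69 (SE 0.182, adjusted p = 0.00197, edgeR). For smc4 it was 0.687 to 14.5 CPM (median 5.71) and 0.981 to 24.9 (median 8.67), a change of 0.66 (SE 0.218, adjusted p = 0.0186, edgeR). For ccnb3 the change was 0.51 (SE 0.163, adjusted p = 0.0132, edgeR), from a median of 13.1 to 18.9 CPM, and for smc2 it was 0.42 (adjusted p = 0.038, edgeR). With each of the 8 replicate numbers left out in turn, the call was lost 1 time for cdc20, 2 times for ccnb3, 4 times for smc4 and 5 times for smc2, and without PET larvae it was lost for ccnb3 and smc2. In all 4 genes the untreated and exposed larvae overlapped, and in no member were all larvae at 20 µM above or below every control (0% of all genes above, 0.055% below).

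The members with the largest changes with hydroxyurea, top2a, ncapg and cdk1, were not called with valproic acid, while smc4 and smc2 were. cdk1 was at 8.5 to 57.9 CPM at 0 (median 28.0) and 9.16 to 73.0 at 20 µM (median 30.3), a log2 fold change of 0.11 (SE 0.142, adjusted p = 0.63, edgeR). The changes were 0.23 for ccnb1 (SE 0.129, adjusted p = 0.211, edgeR), -0.10 for ccna2 (SE 0.131, adjusted p = 0.642, edgeR), -0.28 for ccnb2 (SE 0.293, adjusted p = 0.557, edgeR) and 0.15 for top2a. Between 5 and 20 µM, 8 of 38 members were higher and 0 were lower (7.47% and 7.8% of all genes), among them cdc20 (0.87), anln (0.80), tpx2 (0.67) and cdk1 (0.42).

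Within strains, 20 µM changed few members, and 33 of 38 were called in none, a count for which no share of all genes was computed. In PET, the sum without spc25 was 445 to 561 CPM at 0 and 612 to 818 CPM at 20 µM, without overlap. With spc25 in the sum, the PET ranges were 735 to 1177 and 1014 to 1204 CPM and overlapped. In AB, TU, RW and WIK the ranges overlapped for both sums. These sums were picked after the values were seen. edgeR called 0 in AB (5.8% of all genes called, 2 members at an unadjusted p under 0.05) and 0 in RW (6.67%, 4 members), 1 in PET (6.77%), where smc2 had a change of 1.22, 2 in TU (6.94%), where tpx2 rose by 1.5 and ccna2 had a change of -1.04, and 2 in WIK (12.1%), where ect2 rose by 1.04 and spc25 by 0.69. For ccna2 the change differed between strains (adjusted p = 0.00216, edgeR), being -0.53 in AB, -1.04 in TU, 0.08 in RW, 0.37 in PET and 0.70 in WIK. For ect2 it also did (adjusted p = 0.0441, edgeR), with 0.05 in AB, -0.25 in TU, 0.15 in RW, 0.37 in PET and 1.04 in WIK. These were 2 of 38 members, beside 7.49% of all genes with such a difference.

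Untreated levels of ccna2 differed between the strains as well. AB larvae had 35.6 to 217 CPM (median 48.8), TU larvae 32.6 to 286 CPM (median 71.4), RW larvae 20.0 to 47.6 CPM (median 35.1), WIK larvae 20.7 to 52.3 CPM (median 27.1) and PET larvae 21.5 to 78.9 CPM (median 45.9). In TU the highest untreated larva had 286 CPM while the exposed larvae had at most 77.5, and the medians at 20 µM were 44.6 CPM in TU and 59.13 in WIK. Of all, 16 of 38 members differed between strains at 0 (31.3% of all genes), and with log10 depth as a covariate 6 did. The gene spc25 was among the 16, with medians of 141 CPM in RW and 347 CPM in TU. It held 30.1% of the summed level of the members in this experiment.

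Markers moved at 20 µM too. All 13 exocrine pancreas genes were lower (median -3.82, summed level 1910 to 32311 CPM at 0 and 313 to 1867 at 20 µM), 10 of 18 neural progenitor genes were higher (summed level 515 to 1066 and 541 to 2366 CPM), and 10 of 11 skeletal muscle genes were lower. Their part in the values of the mitosis genes was not tested. With library size in place of TMM scaling, the median of all genes at 20 µM moved from 0.09 to 0.25 on the log2 scale, 19 members were higher, and ccna2 had a change of 0.04. Of all 18192 genes, 6074 were called under this scaling, and 74% of those calls were higher. The median of the members moved from 0.23 to 0.39 under this scaling, which was chosen after the values were seen.

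With warfarin, edgeR called 0 of 35 mitosis genes at 150 µM and 0 at 300 µM, beside 3.18% and 9.6% of all genes that were called. At an unadjusted p under 0.05 there were 6 and 5 members, and DESeq2's Wald test called 0 at both doses. The median log2 fold change was 0.16 at 150 µM and 0.12 at 300 µM, against 0.01 and 0.00 over all genes. The level of cdk1 was 7.38 to 56.9 CPM at 0 (median 28.1) and 9.94 to 49.0 at 300 µM (median 28.3), and those of ccnb1 were 13.6 to 39.3 (median 23.8) and 6.33 to 47.3 (median 25.8). These groups overlapped almost fully. In 0 members were all larvae at 300 µM above every control or every control of their strain (0.0223% of all genes for both), or below every control of their strain (0.0964%).

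At 300 µM the log2 fold changes were 0.11 for cdk1 (SE 0.135, adjusted p = 0.743, edgeR), 0.09 for ccnb1 (SE 0.122, adjusted p = 0.774, edgeR), 0.12 for ccna2 (SE 0.130, adjusted p = 0.679, edgeR), 0.19 for ccnb2 (SE 0.307, adjusted p = 0.813, edgeR) and -0.32 for ccnb3 (SE 0.181, adjusted p = 0.315, edgeR). The values furthest from 0 were kif23 (0.66, adjusted p = 0.136, edgeR) and anln (-0.43, adjusted p = 0.459, edgeR), neither of which was called. Within strains edgeR called 0 of 36 members in each, beside 2.7% of all genes in AB, 0.884% in PET, 1.91% in RW and 3.03% in TU. At an unadjusted p under 0.05 there were 8 members in AB, 2 in PET, 4 in RW and 5 in TU, and 0 differed between strains in their change (0.391% of all genes). Summed over the members, AB larvae were at 451 to 577 CPM at 0 and 596 to 746 CPM at 300 µM, without overlap. The S phase sum of the AB larvae was 1018 to 1247 CPM at 0 and 1249 to 1682 CPM at 300 µM, also without overlap. In RW the median of the members' sum went from 516 to 441 CPM, and in RW, TU and PET the ranges of both sums overlapped. These sums were picked after the values were seen. Among untreated larvae, ect2 differed between strains (adjusted p = 0.0228, edgeR), which was 1 of 36 members beside 5.78% of all genes. Of the S phase genes, 11 of 41 were higher at 300 µM, with a median of 0.31, and 7 of 35 mitosis genes were above that median. All 13 exocrine pancreas genes were lower at 300 µM (median -1.83, summed level 4350 to 18543 CPM at 0 and 1073 to 6804 at 300 µM), and their part in these values was not tested.

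**Figure D5:**
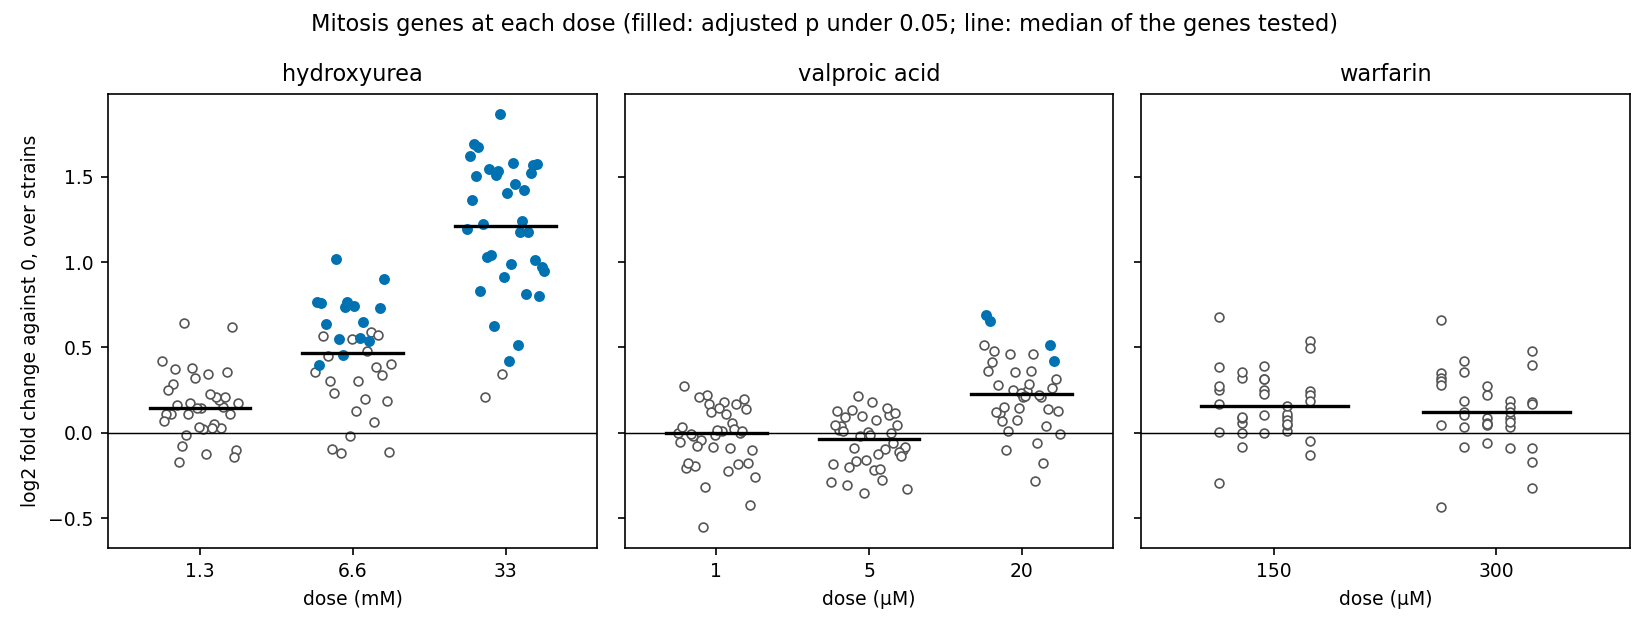
Log2 fold change against untreated larvae (y axis) of each mitosis gene tested, at each dose (x axis) of hydroxyurea in mM and of valproic acid and warfarin in µM, fitted over strains. Filled points have an adjusted p under 0.05 from edgeR's quasi-likelihood test and lines are medians of the genes tested. The medians of hydroxyurea are 0.15, 0.47 and 1.21, and those of the highest doses of valproic acid and warfarin are 0.23 and 0.12.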

How the data were processed

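Single whole zebrafish larvae were sequenced by Lasy-Seq, and the authors deposited a table of estimated counts per gene for each larva, which were whole numbers except for 34 genes in 24 larvae and were rounded here. Per the submitters' processing notes, the genome build was GRCz11 and Seurat 5.1.0 was used. The aligner and the counting program were not given in the sources used here. All columns of larvae were used, and 0 were left unused. No 2 larvae held the same values.

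Strain and dose were taken from the sample labels. Counts were tested per compound with edgeR 4.0.16 (TMM scaling, filterByExpr at its settings of 10 counts per larva and 15 in all, quasi-likelihood fit, limma 3.58.1 loaded, R 4.3.3), with strain and dose as additive terms over all doses, or with 1 term per strain and dose for changes within strains and their interaction. P-values were adjusted by the Benjamini-Hochberg method over 15042 genes for hydroxyurea, 18192 for valproic acid and 13482 for warfarin, and over 17236, 21073 and 14826 genes in the fits within strains, with 0.05 as the threshold. CPM used the TMM library sizes. Alternatives were DESeq2 1.42.0 (its Wald test, and its size factors in edgeR), no filter, a minimum log2 fold change of 1, a replicate block, the log10 total count as a covariate, and leaving out PET, larvae with less than 0.5 of the experiment's median depth, or each replicate number. Figures were drawn with matplotlib 3.10.9.

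Full statistics were given for cdk1 and the cyclins and, at the highest dose, for the 3 largest called increases and decreases with a mean count of at least 10. Other called members were given by fold. From each other list the 2 genes with the most counts and the 2 largest called changes were named, with rrm2, pcna, cdkn1a, wee1 and chek1. A further list of genes is not reported here. Other members named with their values were chosen after these were seen. The members and lists were chosen with earlier results of these data known.

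The replicate numbers did not mark shared animals, and same-numbered larvae did not deviate together, so larvae were not paired. On simulated counts for hydroxyurea at 33 mM over strains, with 198 of 14830 genes changed, 67.68% of those changed by 0.75 and 95.96% of those changed by 1.5 on the log2 scale were recovered, and 1.818% of 165 calls were false. The spread of all simulated counts was estimated with strain but not dose as a term. It includes dose effects and differs from the spread in the tests, so these rates need not hold for the real counts. Reads of birc5a, bub1ba and prc1b may be split with their copies birc5b, bub1bb and prc1a in the same table. No sequences are shown.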

Additional observations from a re-analysis of the deposited data

Results flagged for a closer look

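In 6 of 48 groups of 4 to 8 larvae of the same strain, compound and dose, the summed level of the mitosis genes in a single larva lay far from the others by Dixon's criterion, and chance alone flags about 1 in 20 groups. With hydroxyurea these were a TU larva at 33 mM with 701.73 CPM (median of the others 1211.17) and an AB larva at 0 with 868.239 CPM (518.176). With valproic acid they were a TU larva at 5 µM with 1753.19 CPM (945.605), an RW larva at 20 µM with 1581.69 CPM (1059.43), a WIK larva at 1 µM with 1103.91 CPM (904.958) and a WIK larva at 5 µM with 547.546 CPM (858.156). The low larvae were those of TU at 33 mM and of WIK at 5 µM, and the other 4 were high. Without spc25, the sum spanned 542 to 705 CPM in TU at 5 µM and 525 to 723 CPM in WIK at 1 µM. In AB at 0 of hydroxyurea it spanned 372 to 470 CPM. In RW at 20 µM the highest larva still had 1420 CPM without spc25. The lowest had 616 CPM in TU at 33 mM and 371 CPM in WIK at 5 µM. Dixon's criterion was not applied to the sum without spc25.

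For ccnb1 in the hydroxyurea experiment, 2 of 16 groups held such a larva. An RW larva at 6.6 mM had 57.869 CPM of ccnb1, where the median of the others was 22.629, and a PET larva at 33 mM had 101.558 CPM, where it was 62.262. For cdk1 and for top2a the number was 0 of 16 groups each.

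The effect of 20 µM of valproic acid differed between the 5 strains for ccna2 (adjusted p = 0.00216 for the strain by dose interaction, edgeR) and for ect2 (adjusted p = 0.0441, edgeR). Beside these members of the 38 tested, 7.49% of all genes had such a difference. The ccna2 change was lowest in TU (-1.04) and highest in WIK (0.70), and the ect2 change was lowest in TU (-0.25) and highest in WIK (1.04). The ect2 medians at 0 and 20 µM were 77.1 and 61.3 CPM in TU and 35.8 and 59.5 CPM in WIK.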

How the results depend on the processing

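The median log2 fold change of the mitosis genes against untreated larvae kept its direction under every alternative run for hydroxyurea, for warfarin and for valproic acid at 20 µM. At 1 and 5 µM, where it was -0.0022 and -0.04, it changed sign with total count scaling, and at 1 µM also with size factors, the Wald test, no filter, depth as a covariate or replicate 7 left out. At 33 mM of hydroxyurea 33 to 35 of 36 members were called when each replicate number was left out, 34 with the replicate block, and 14 when a log2 change above 1 was required (0 at 6.6 mM, 0 between 6.6 and 33 mM, and 3, 9, 2 and 2 within AB, PET, RW and TU). At 1.3 mM, where 0 were called, 1 was without the filter and 2 were with DESeq2's Wald test. Within AB, 9 in place of 20 were called without shallow larvae, a setting that left out many AB larvae, since their median depth lay under the cutoff. Of the 3 members that differed between untreated strains, 0 did with the logarithm of depth as a covariate, and 1 to 3 did with a replicate left out.

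At 20 µM of valproic acid the 4 calls became 7 with DESeq2 size factors, 7 with the covariate, 10 with DESeq2's Wald test, 19 with total count scaling, 0 with the minimum change and 1 to 4 with a replicate left out. Of all 18192 genes, 3721 were called in the main fit, 3984 with size factors and 3481 with the covariate. With the Wald test 4612 were called, and with total count scaling 6074. Between 5 and 20 µM the 8 calls became 4 without the filter, 3 without shallow larvae, 13 with total count scaling, 13 with the Wald test, 0 with the minimum change and 4 to 8 with a replicate left out. Within PET the single call became 2 with size factors, 3 with the covariate, 0 without shallow larvae and 0 to 2 with a replicate left out, within TU the 2 calls became 0 to 2 and within WIK 1 to 3 with a replicate left out, and within WIK 1 without shallow larvae and 1 with the covariate. The PET median depth of 1053360 lay under the cutoff for shallow larvae, so many PET larvae were left out in that setting. With the minimum change PET, TU and WIK had 0. The 2 interactions became 1 with size factors, 1 without shallow larvae, 1 with the covariate and 1 to 4 with a replicate left out, and the 16 differences between untreated strains became 6 with the covariate. With warfarin, 0 calls became 1 at 150 µM without shallow larvae, 1 at 300 µM with total count scaling and 1 within AB without shallow larvae, and the single difference between untreated strains became 0 without shallow larvae, 0 with the covariate and 0 to 1 with a replicate left out.

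The ratio of summed CPM at 20 µM of valproic acid to 0 was 1.09, and 1.31 with total count scaling. The uncalled values that changed sign were ccna2 with valproic acid (0.0384 with total count scaling, and -0.20 to 0.13 with a replicate left out), cdk1 with valproic acid (-0.0112 to 0.17 with a replicate left out) and cdk1 with warfarin (-0.000596 to 0.24 with a replicate left out). Over all genes, the share of calls that were higher was 45% for hydroxyurea at 33 mM and 60.7% with total count scaling, and 44% and 74% for valproic acid at 20 µM. The number of genes called at 33 mM was 3432, 2304 without PET and 240 with the minimum change. The causes of these differences were not tested. The replicate block changed no call among those reported. Too few counts were present to test bub1 and kif18a over strains in the hydroxyurea experiment, and with 4 to 8 larvae a group, small differences between strains could not be resolved.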
